A study of Mus musculus with 9 samples.

Results

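The Eph receptors and their ephrin ligands were followed in sorted cells of mouse bile duct organoids. The 10 family members examined, of 32137 genes in the files, were taken by gene symbol from a list given with the question. They were 6 receptors (Epha1, Epha2, Ephb2, Ephb3, Ephb4 and Ephb6) and 4 ephrins (Efna1, Efna5, Efnb1 and Efnb2). All 10 passed the filter on low counts that left 17011 genes for testing, and the lowest count of a member in any library was 192, that of Efna5.

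RNA sequencing had been done on 9 libraries of differentiated bile duct organoids grown from 1 male mouse of mixed background. Every library carried Axin2CreERT2+/- and R26-LSL-tdTom+/-, a Cre enzyme that needs tamoxifen and is made wherever the Wnt target Axin2 is on, and a red fluorescent reporter that Cre switches on for good. All organoids were differentiated for 11 days and had 3 uM dexamethasone and 500 nM 4-hydroxytamoxifen (4-OHT) in the final 24 h. R-spondin 1 (Rspo1), a secreted protein that strengthens Wnt signalling, was added at 100 ng/ml over the same 24 h or left out. The 3 groups were tdTom-negative cells without Rspo1 (untreated), tdTom-negative cells with Rspo1 (Rspo1 tdTom-neg) and tdTom-positive cells with Rspo1 (Rspo1 tdTom-pos). Each group held 1 library from each of passages 5, 6 and 10 of the line, and no group held tdTom-positive cells without Rspo1. Since 1 animal gave all libraries, every SD and p-value below measures the spread between cultures of that line and not between animals.

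Eph receptors are receptor tyrosine kinases that bind ephrins on neighbouring cells, so that contact sends a signal into both cells and often makes them move apart. EphA receptors mainly bind the lipid-anchored ephrin-A proteins, and EphB receptors mainly bind the membrane-spanning ephrin-B proteins. In the gut, Wnt signalling keeps Ephb2 and Ephb3 high and Efnb1 and Efnb2 low at the crypt base, which holds stem cells and their progeny in place, and the present comparisons ask how these genes stood in bile duct cells given a Wnt-strengthening signal.

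Promoter windows were examined because several of these genes are described as Wnt targets in gut. RefSeq (GRCm38.p6) gave 11 windows of 300 bases (250 before to 50 after a gene start) for the 10 members. CTTTGA, the core of the motif bound by TCF/LEF factors, was searched on both strands. It was present in 1 of the 10 members, Epha2, where it began 209 bases before the gene start, and in 16.0% of all 32851 windows. Upstream stretches of 4 genes are shown, for Epha2 with the motif in capitals, for Ephb2 and Ephb3 as the receptors named as crypt Wnt targets, and for Efnb2 as the ephrin whose fall in one comparison was called under every setting tried. They are written 5′ to 3′ on the gene's own strand. The Epha2 stretch lies at chr4:141300971-141301220 (plus strand), that of Ephb2 at chr4:136836013-136836262 (minus strand), that of Ephb3 at chr16:21204545-21204754 (plus strand) and that of Efnb2 at chr8:8661243-8661492 (minus strand).
Epha2: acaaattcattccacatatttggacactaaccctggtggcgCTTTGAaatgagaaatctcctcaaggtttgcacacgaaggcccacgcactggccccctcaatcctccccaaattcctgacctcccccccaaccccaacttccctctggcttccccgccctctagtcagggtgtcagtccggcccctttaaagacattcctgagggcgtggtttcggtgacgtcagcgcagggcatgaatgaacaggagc
Ephb2: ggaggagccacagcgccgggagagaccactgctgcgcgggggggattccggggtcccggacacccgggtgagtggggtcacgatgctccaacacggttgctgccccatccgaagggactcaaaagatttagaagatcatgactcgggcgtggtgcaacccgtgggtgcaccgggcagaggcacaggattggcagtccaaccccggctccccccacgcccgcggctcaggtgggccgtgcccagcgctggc
Ephb3: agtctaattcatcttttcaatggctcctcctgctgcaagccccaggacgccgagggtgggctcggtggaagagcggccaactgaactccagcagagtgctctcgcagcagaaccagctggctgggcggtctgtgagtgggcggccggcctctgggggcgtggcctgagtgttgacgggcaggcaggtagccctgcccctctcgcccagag
Efnb2: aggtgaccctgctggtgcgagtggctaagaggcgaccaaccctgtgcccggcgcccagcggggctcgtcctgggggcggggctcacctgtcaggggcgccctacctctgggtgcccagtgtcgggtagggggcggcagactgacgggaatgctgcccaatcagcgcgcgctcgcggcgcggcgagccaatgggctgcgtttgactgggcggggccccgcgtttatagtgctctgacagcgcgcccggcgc
The letters CTTTGA did not occur in the windows of Ephb2, Ephb3 and Efnb2. Of the 300 bases of each window, 54.7% were G or C in Epha2, 68.7% in Ephb2, 66.7% in Ephb3 and 72.3% in Efnb2.

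Total counts per library ranged from 23423979 to 37351448. Axin2, the gene that drives the reporter, set the Rspo1 libraries apart from the untreated ones but did not separate the gates: it was higher by a log2 fold change of 5.13 (SE 0.61) in Rspo1 tdTom-pos than in untreated cells and by 4.87 (SE 0.60) in Rspo1 tdTom-neg than in untreated cells (edgeR adjusted p = 0.00131 and 0.00115), and by 0.26 (SE 0.50, edgeR adjusted p = 0.733) in Rspo1 tdTom-pos than in Rspo1 tdTom-neg cells. The 10 bile duct markers were all present and summed to 13238 to 16102 CPM (TMM-scaled counts relative to library size) in untreated, 14689 to 17686 CPM in Rspo1 tdTom-neg and 12124 to 12253 CPM in Rspo1 tdTom-pos libraries, the lowest of the 3 groups. Krt19 among them was lower in Rspo1 tdTom-pos than in untreated cells by -1.06 (SE 0.20, edgeR adjusted p = 0.0127) and Sox9 higher by 1.31 (SE 0.32, edgeR adjusted p = 0.0412). The 14 genes of a cell dissociation list summed to 1116 to 1663 CPM in untreated, 1214 to 1550 CPM in Rspo1 tdTom-neg and 1322 to 2493 CPM in Rspo1 tdTom-pos libraries. Of these, Fosb (3.39), Fos (1.80) and Zfp36 (0.97) were called higher by edgeR in Rspo1 tdTom-pos than in Rspo1 tdTom-neg cells and 1 was called lower, against 24.3% of all genes. Between Rspo1 tdTom-pos and untreated cells edgeR called 0 of the 14 higher and 1 lower, Hspa1b (-1.01, SE 0.24, adjusted p = 0.0382), against 5.21% of all genes. There 10 of the 14 had an unadjusted p under 0.05. A list of 15 proliferation genes summed to 146.5 to 258 CPM in untreated, 399.5 to 432 CPM in Rspo1 tdTom-neg and 825 to 1185 CPM in Rspo1 tdTom-pos libraries. Of 10 endothelial markers, 8 were in the files and summed to 1.40 to 1.81 CPM in untreated, 7.45 to 9.23 CPM in Rspo1 tdTom-neg and 6.38 to 6.98 CPM in Rspo1 tdTom-pos libraries. Esam had the highest mean of the list in each group, at 0.590, 7.12 and 5.48 CPM in that order. Of the 8, 2, 4 and 3 genes stayed at or under 3 counts in all libraries of these groups. Cdh5 and Stab2, which define endothelium, did so in every group, and the remaining genes did not. The 8 immune markers in the files summed to 58.3 to 77.1, 59.9 to 72.2 and 53.8 to 68.5 CPM in the same order, with Csf1r highest. The 10 hepatocyte markers in the files summed to 174 to 446, 276 to 546 and 207 to 314 CPM, with Ttr highest. The part of these differences in the results below was not tested, and in bulk RNA fewer cells with a transcript and less of it per cell cannot be told apart.

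Epha2 was the most abundant member and Efna5 the least abundant in every group. Levels of different genes are compared here as the deposited FPKM, which accounts for transcript length. In untreated cells Epha2 stood at 60.2 ± 7.51 FPKM (SD, n = 3), Ephb4 at 39.4 ± 10.1, Efnb1 at 29.0 ± 7.35 and Efnb2 at 25.5 ± 0.669. Epha1 followed at 22.8 ± 2.26 FPKM (SD, n = 3), Efna1 at 18.1 ± 7.81, Ephb6 at 14.5 ± 6.08 and Ephb3 at 11.7 ± 2.25. Ephb2 at 5.72 ± 0.750 FPKM (SD, n = 3) and Efna5 at 3.71 ± 0.451 came last. Among neighbours in this order only Epha2 and Ephb4, Ephb3 and Ephb2, and Ephb2 and Efna5 had libraries that did not overlap. All other neighbours overlapped.

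The order of the middle genes changed in Rspo1 tdTom-neg cells. There Ephb6 ranked 3 at 29.9 ± 5.82 FPKM (SD, n = 3), level with Efnb1 at 28.9 ± 1.38, Efna1 at 27.7 ± 7.93 and Epha1 at 27.1 ± 1.38, whose libraries overlapped from one to the next. Efnb2 ranked 7 at 14.1 ± 1.55 FPKM (SD, n = 3), clear of Epha1 above it. In Rspo1 tdTom-pos cells Efnb1 at 20.6 ± 2.40, Epha1 at 19.1 ± 0.870, Efnb2 at 19.1 ± 1.85, Ephb6 at 16.2 ± 1.68 and Efna1 at 13.7 ± 2.83 FPKM (SD, n = 3) formed a run of overlapping neighbours below Ephb4, whose libraries had 39.7 to 41.6 FPKM. Neighbours in this run are not resolved, but all Efnb1 and Epha1 libraries lay above all Ephb6 and Efna1 libraries, and all Efnb2 libraries above all Efna1 libraries.

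**Figure D1:**
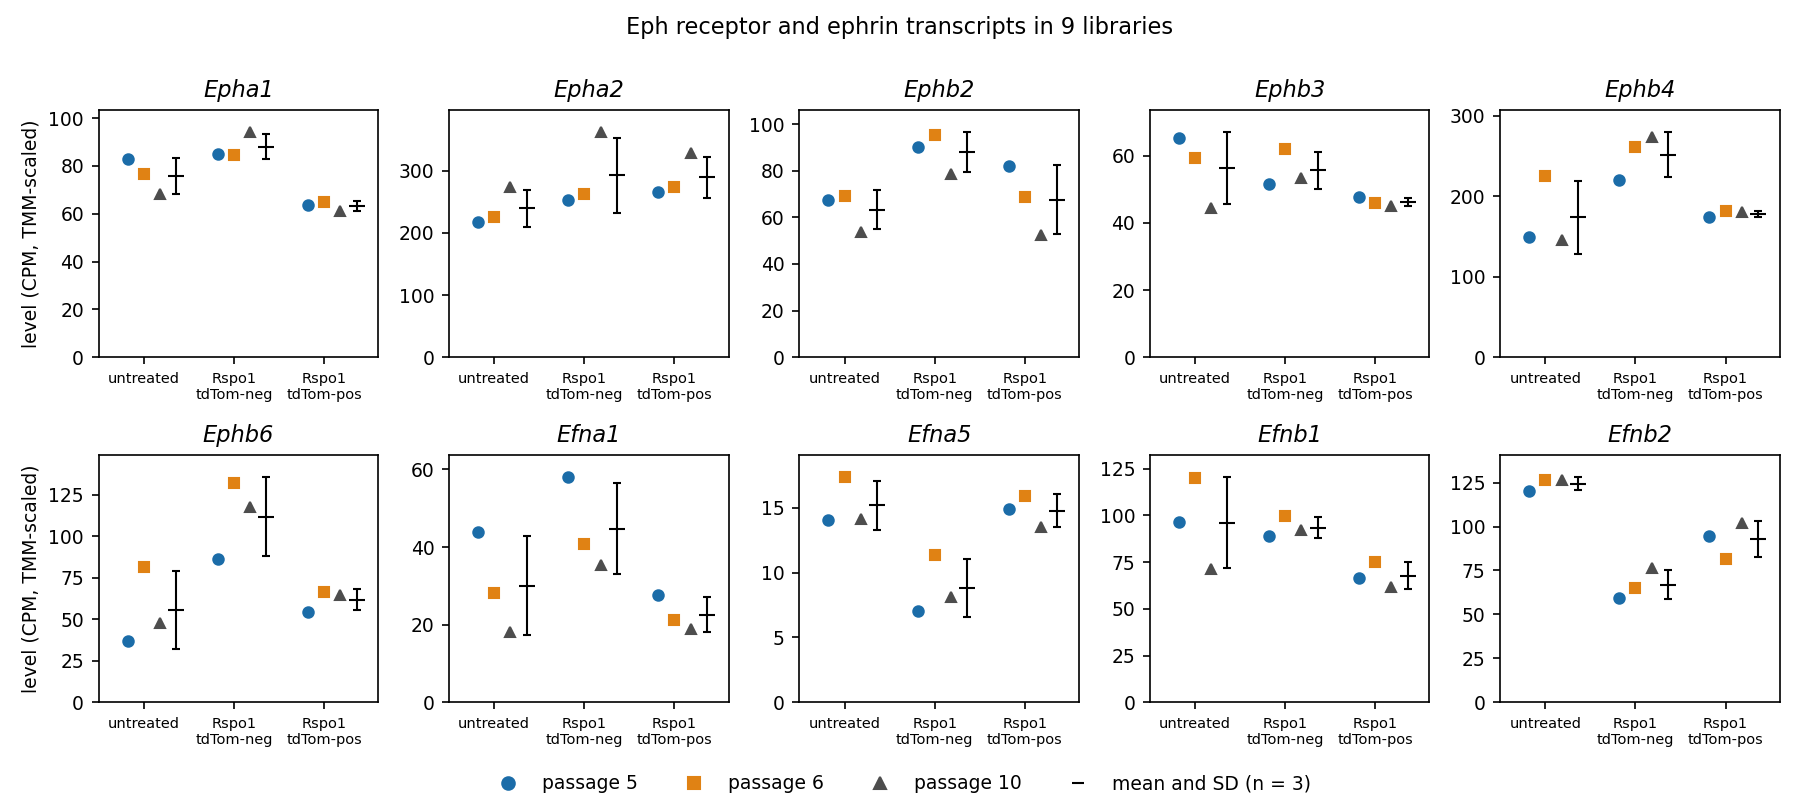
Level of each of the 10 genes in each of the 9 libraries, in TMM-scaled CPM on a linear axis from 0, by group. Colour and shape give the passage, and the bar gives the mean and SD of 3 libraries. Efnb2 libraries of the 3 groups do not overlap, with the Rspo1 tdTom-neg libraries lowest at 59.6 to 76.2 CPM, while the Ephb3 libraries lie within 44.3 to 65.2 CPM throughout.

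Of the 10 members 3 changed between Rspo1 tdTom-neg and untreated cells in the edgeR quasi-likelihood test, Benjamini-Hochberg adjusted over all genes. Of all 17011 genes 21.9% were called there. Group was the only factor in this fit, so the pairing of libraries by passage was not used. The group comparisons with 1 library left out, given below, lacked a passage term too. Ephb6 rose in the Rspo1 tdTom-neg cells (8% of all genes were called higher), and Efna5 and Efnb2 fell (13.9% were called lower). Between Rspo1 tdTom-pos and Rspo1 tdTom-neg cells 5 members changed, against 24.3% of all genes: Efna5 and Efnb2 were higher (14.6% of genes) and Epha1, Ephb6 and Efna1 lower (9.78% of genes) in the Rspo1 tdTom-pos cells. Between Rspo1 tdTom-pos and untreated cells 0 members were called by edgeR, against 5.21% of all genes, and 3 had an unadjusted p under 0.05 (Epha1, Efnb1 and Efnb2). DESeq2 called 1506 genes there and 1 member, Efnb2. The comparisons share groups of libraries, so they are not independent of each other. The median log2 fold change over the 10 members was 0.25 for Rspo1 tdTom-neg against untreated (all genes -0.02), -0.42 for Rspo1 tdTom-pos against Rspo1 tdTom-neg (all genes 0.03) and -0.15 for Rspo1 tdTom-pos against untreated (all genes -0.01). With an offset for transcript GC content and length these medians were -0.04 (all genes -0.09), -0.15 (all genes 0.09) and -0.18 (all genes -0.0040), so the first changed sign.

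Libraries of the same passage deviated together, and a fit with passage as a block called more genes. With the block 6 members changed in Rspo1 tdTom-neg against untreated cells (35.5% of all genes), 4 higher (15.5%) and 2 lower (20%). Efna1, Ephb2 and Ephb4 joined Ephb6 among those that rose. Between Rspo1 tdTom-pos and Rspo1 tdTom-neg cells it called 8 members (38.9% of all genes), 2 higher (21.5%) and 6 lower (17.4%), adding Ephb2, Ephb4 and Efnb1 to the lower ones. Between Rspo1 tdTom-pos and untreated cells it called Efnb1 and Efnb2, both lower, against 13.2% of all genes (6.77% lower). Without the block, the libraries of the groups did not overlap in 5 members for Rspo1 tdTom-neg against untreated (36.3% of all genes), in 8 for Rspo1 tdTom-pos against Rspo1 tdTom-neg (45.2%) and in 2 for Rspo1 tdTom-pos against untreated (23.2%).

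**Figure D2:**
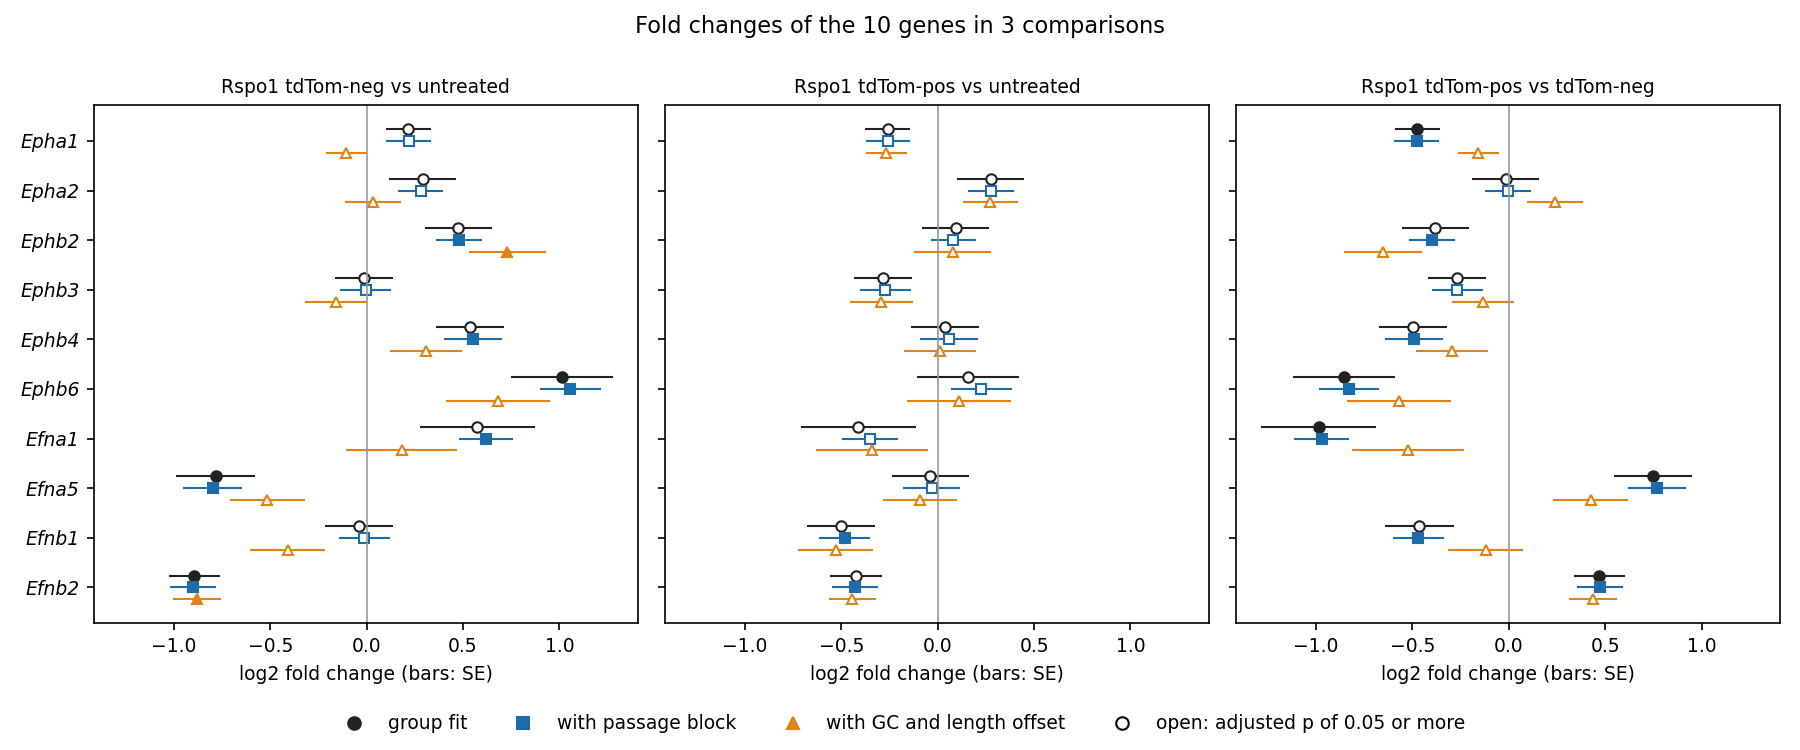
Log2 fold change with SE of each of the 10 genes in the 3 group comparisons by edgeR, with group as the factor (circles), with passage as a block (squares) and with the GC and length offset (triangles); filled markers had an adjusted p under 0.05. Efnb2 is filled under all 3 fits in Rspo1 tdTom-neg against untreated cells, and in Rspo1 tdTom-pos against untreated cells only the squares of Efnb1 and Efnb2 are filled.

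Among the EphA receptors, Epha2 did not differ detectably between groups and Epha1 was lower in Rspo1 tdTom-pos than in Rspo1 tdTom-neg cells. Epha2, a receptor widespread in epithelia, had 218, 226 and 274 CPM in the untreated libraries of passages 5, 6 and 10, 253, 263 and 362 CPM in the Rspo1 tdTom-neg libraries and 267, 274 and 328 CPM in the Rspo1 tdTom-pos libraries. The untreated group was lowest at each passage, and the groups overlapped. Its log2 fold change was 0.29 (SE 0.17, edgeR adjusted p = 0.259) in Rspo1 tdTom-neg and 0.27 (SE 0.17, edgeR adjusted p = 0.481) in Rspo1 tdTom-pos against untreated cells. Epha1 had 82.7, 76.6 and 68.1 CPM in untreated, 85.2, 84.7 and 94.1 CPM in Rspo1 tdTom-neg and 63.6, 65.1 and 61.2 CPM in Rspo1 tdTom-pos libraries. The 3 groups did not overlap, with the Rspo1 tdTom-pos libraries lowest and close together. Epha1 was lower in Rspo1 tdTom-pos than in Rspo1 tdTom-neg cells, at a log2 fold change of -0.48 (SE 0.12, edgeR adjusted p = 0.0158), while it had -0.26 (SE 0.12, adjusted p = 0.279) against untreated cells and 0.22 (SE 0.12, adjusted p = 0.21) in Rspo1 tdTom-neg against untreated cells. The call was lost without Rspo1 tdTom-pos replicate 1 (edgeR adjusted p = 0.062) or 3 (0.0632) and without Rspo1 tdTom-neg replicate 3 (0.0506). Epha1 shares 6.01% of its exon bases with Zyx on the opposite strand, and the strand setting of the counting was not given in the sources used here.

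Of the EphB receptors described as crypt Wnt targets, Ephb3 showed no detectable change in any comparison of groups. Ephb3 had 65.2, 59.2 and 44.3 CPM in untreated, 51.6, 61.9 and 53.5 CPM in Rspo1 tdTom-neg and 47.6, 45.9 and 45.1 CPM in Rspo1 tdTom-pos libraries at passages 5, 6 and 10. Its highest library was 1.47 times its lowest, the narrowest range of the 10 members. Its log2 fold change was -0.02 (SE 0.15, edgeR adjusted p = 0.954) in Rspo1 tdTom-neg and -0.28 (SE 0.15, edgeR adjusted p = 0.382) in Rspo1 tdTom-pos against untreated cells, and the test called it under none of 13 alternatives in either comparison. Its Rspo1 tdTom-pos libraries all lay below its Rspo1 tdTom-neg ones, at a log2 fold change of -0.27 (SE 0.15, edgeR adjusted p = 0.221), and none of 13 alternatives called that difference. Ephb2 had 67.2, 68.9 and 53.9 CPM in untreated, 90.1, 95.3 and 78.8 CPM in Rspo1 tdTom-neg and 81.9, 68.5 and 52.2 CPM in Rspo1 tdTom-pos libraries. All Rspo1 tdTom-neg libraries lay above the untreated ones, whereas the Rspo1 tdTom-pos libraries overlapped both groups. In Rspo1 tdTom-neg against untreated cells Ephb2 had a log2 fold change of 0.48 (SE 0.17, edgeR adjusted p = 0.0744). It was called there in 6 of 13 alternatives. Among these were the passage block (0.48, edgeR adjusted p = 0.00983) and correction for transcript GC content and length (0.73, adjusted p = 0.0477). Against Rspo1 tdTom-neg cells the Rspo1 tdTom-pos cells had -0.38 (SE 0.17, edgeR adjusted p = 0.134) without and -0.40 (adjusted p = 0.0213) with the block. Against untreated cells the value was 0.09 (SE 0.17, edgeR adjusted p = 0.869).

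Ephb6 rose in Rspo1 tdTom-neg cells, and Ephb4 had a similar pattern that passed the test only with some settings. Ephb6, a family member whose kinase domain lacks activity, had 37.1, 81.7 and 47.5 CPM in untreated, 86.0, 132 and 117 CPM in Rspo1 tdTom-neg and 54.5, 66.5 and 64.6 CPM in Rspo1 tdTom-pos libraries. The passage 6 library was the highest of each group, and all Rspo1 tdTom-neg libraries lay above all others. Ephb6 rose by 1.01 on the log2 scale (SE 0.27, edgeR adjusted p = 0.0223) against untreated cells, a call lost without untreated replicate 1 (0.0659) or 3 (0.0664) and without Rspo1 tdTom-neg replicate 2 (0.0547) or 3 (0.0634). Against these cells Ephb6 in Rspo1 tdTom-pos cells had -0.85 (SE 0.26, edgeR adjusted p = 0.0389), a call that stood only without Rspo1 tdTom-neg replicate 1 among the 6 fits that left out 1 library. In the other 5 of these fits its adjusted p ranged from 0.085 without Rspo1 tdTom-pos replicate 3 and 0.0851 without Rspo1 tdTom-pos replicate 2, through 0.0883 and 0.0972 without Rspo1 tdTom-neg replicates 3 and 2, to 0.123 without Rspo1 tdTom-pos replicate 1. With the passage block the rise of Ephb6 was 1.06 (edgeR adjusted p = 0.000719).

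Ephb4, a receptor that binds mainly ephrin-B2, the product of Efnb2, had 149.8, 225 and 146 CPM in untreated, 220.5, 261 and 274 CPM in Rspo1 tdTom-neg and 174, 181 and 180.0 CPM in Rspo1 tdTom-pos libraries. The untreated passage 6 library reached into the Rspo1 tdTom-neg range. Ephb4 had a log2 fold change of 0.54 (SE 0.18, edgeR adjusted p = 0.0524) in Rspo1 tdTom-neg against untreated cells. It was called there in 5 of 13 alternatives, among them the block (0.55, edgeR adjusted p = 0.0158) and the fit without untreated replicate 2 (0.77, 0.00636). Once GC and length were corrected for it had 0.31 (edgeR adjusted p = 0.329), and 0.34 (0.151) with block and offset. Ephb4 in Rspo1 tdTom-pos against Rspo1 tdTom-neg cells had -0.50 (SE 0.18, edgeR adjusted p = 0.0625), -0.49 (adjusted p = 0.0239) with the block, -0.30 (0.342) with the offset and -0.29 (0.198) with both. Without the block this difference was called by DESeq2 (adjusted p = 0.0225). It was also called by edgeR with upper-quartile scaling (adjusted p = 0.0423), no filter (0.0378) and 6 libraries only (0.0210). Rspo1 tdTom-pos and untreated cells differed by 0.04 (SE 0.18, edgeR adjusted p = 0.953).

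Efnb2 fell in Rspo1 tdTom-neg cells under every setting tried. This ephrin, best known from arterial endothelium, had 120.3, 126 and 127 CPM in the untreated libraries of passages 5, 6 and 10. It had 59.6, 65.1 and 76.2 CPM in the Rspo1 tdTom-neg and 94.5, 81.8 and 102 CPM in the Rspo1 tdTom-pos libraries. The 3 groups did not overlap, with untreated highest, Rspo1 tdTom-pos between and Rspo1 tdTom-neg lowest. Efnb2 fell by 0.89 on the log2 scale in Rspo1 tdTom-neg against untreated cells (SE 0.13, edgeR adjusted p = 0.00198), and it was called lower in all 13 alternatives, with log2 fold changes from -0.96 to -0.81 and adjusted p-values of at most 0.00981. In Rspo1 tdTom-pos against untreated cells Efnb2 had -0.42 (SE 0.13, edgeR adjusted p = 0.107), and it was called at -0.43 with the passage block (adjusted p = 0.0344) and by DESeq2 (adjusted p = 0.0321). The Rspo1 tdTom-pos cells had more Efnb2 than the Rspo1 tdTom-neg cells, by 0.47 (SE 0.13, edgeR adjusted p = 0.0278). That last call was lost without Rspo1 tdTom-pos replicate 1 (edgeR adjusted p = 0.0899) or 3 (0.105) and without Rspo1 tdTom-neg replicate 1 (0.0986) or 2 (0.0509).

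Efnb1, the other ephrin-B examined, did not differ detectably between Rspo1 tdTom-neg and untreated cells. Efnb1 had 96.7, 120.0 and 71.3 CPM in untreated, 89.0, 99.6 and 92.0 CPM in Rspo1 tdTom-neg and 66.7, 75.3 and 61.5 CPM in Rspo1 tdTom-pos libraries. The Rspo1 tdTom-neg libraries lay within the untreated range, and the Rspo1 tdTom-pos library was the lowest of its passage at each passage. Efnb1 had a log2 fold change of -0.04 (SE 0.18, edgeR adjusted p = 0.902) in Rspo1 tdTom-neg against untreated cells. In Rspo1 tdTom-pos against untreated cells it had -0.50 (SE 0.18, edgeR adjusted p = 0.159), and was called with the block (-0.48, adjusted p = 0.0348) and without untreated replicate 3 (-0.68, adjusted p = 0.0263). Against Rspo1 tdTom-neg cells the values were -0.46 (SE 0.18, edgeR adjusted p = 0.0794) without and -0.47 (adjusted p = 0.0168) with the block, and -0.12 both with the offset (0.739) and with block and offset (0.518). Without the block this difference was called by DESeq2 (adjusted p = 0.0467). It was also called by edgeR with no filter (adjusted p = 0.0456) and with 6 libraries only (0.0249).

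Of the ephrin-A genes, Efna5 fell in Rspo1 tdTom-neg against untreated cells. Efna5 had 14.1, 17.4 and 14.2 CPM in untreated, 7.03, 11.4 and 8.13 CPM in Rspo1 tdTom-neg and 14.9, 16.0 and 13.5 CPM in Rspo1 tdTom-pos libraries. The Rspo1 tdTom-neg libraries were the 3 lowest of the 9, and the other 2 groups overlapped. Efna5 fell by 0.78 on the log2 scale against untreated cells (SE 0.20, edgeR adjusted p = 0.0212), a call lost without Rspo1 tdTom-neg replicate 1 (0.0769) or 3 (0.0874) and without untreated replicate 2 (0.0515). It was higher by 0.75 (SE 0.20, edgeR adjusted p = 0.0235) in Rspo1 tdTom-pos than in Rspo1 tdTom-neg cells. This call was lost without Rspo1 tdTom-pos replicate 1 (edgeR adjusted p = 0.071) or 2 (0.0805) and without Rspo1 tdTom-neg replicate 1 (0.0879) or 3 (0.10). Rspo1 tdTom-pos and untreated cells differed in Efna5 by -0.04 (SE 0.20, edgeR adjusted p = 0.959).

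Efna1, a common ligand of Epha2, had 43.8, 28.3 and 18.2 CPM in untreated, 58.0, 40.7 and 35.5 CPM in Rspo1 tdTom-neg and 27.6, 21.3 and 18.9 CPM in Rspo1 tdTom-pos libraries. Within each passage the Rspo1 tdTom-neg library was the highest, and in each group the level was lowest at passage 10. Efna1 had a log2 fold change of 0.57 (SE 0.30, edgeR adjusted p = 0.194) in Rspo1 tdTom-neg against untreated cells without the block and 0.62 (adjusted p = 0.00696) with it, and was also called without untreated replicate 1 (0.95, adjusted p = 0.0493). Of 13 alternatives 3 called this difference. Once GC and length were corrected for, the value was 0.18 (edgeR adjusted p = 0.747), and 0.22 (0.232) with block and offset. Efna1 was lower in Rspo1 tdTom-pos than in Rspo1 tdTom-neg cells by -0.99 (SE 0.30, edgeR adjusted p = 0.0365). This call stood only without Rspo1 tdTom-neg replicate 3 among the 6 fits that left out 1 library. It was lost without Rspo1 tdTom-pos replicates 1 (edgeR adjusted p = 0.0546), 2 (0.108) or 3 (0.113) and without Rspo1 tdTom-neg replicates 1 (0.14) or 2 (0.0568).

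Fold changes that involved the Rspo1 tdTom-neg group followed the base composition and the length of the transcript across genes. Most members lay toward the GC-rich end. The rank correlation of transcript GC content with the log2 fold change across 17001 genes, which share libraries and are not replicates, was 0.496 for Rspo1 tdTom-neg against untreated cells, -0.504 for Rspo1 tdTom-pos against Rspo1 tdTom-neg cells and -0.0134 for Rspo1 tdTom-pos against untreated cells. The middle 50% of genes had 45.1% to 54.6% GC. Efna5 had 44.8% and Efnb2 50.5%, and the other 8 members ranged from 54.2% in Efna1 to 59.4% in Ephb6. With transcript length the rank correlation was -0.307 for Rspo1 tdTom-neg against untreated cells and 0.311 for Rspo1 tdTom-pos against Rspo1 tdTom-neg cells. For Rspo1 tdTom-pos against untreated cells it was 0.00614. Ephb2 had by far the longest transcript of the 10, at 10902 bases. This is the longest annotated transcript of the gene. The offset corrects GC content and length together, so their separate parts in the shift of Ephb2 were not tested.

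With an offset for GC content and length in each library, Efnb2 kept its fall in Rspo1 tdTom-neg against untreated cells (log2 fold change -0.88, SE 0.12, edgeR adjusted p = 0.00554) and Ephb2 passed the test (0.73, SE 0.20, adjusted p = 0.0477), 2 of 10 members against 9.65% of all genes. Efna5 then had -0.51 (edgeR adjusted p = 0.125) and Ephb6 0.68 (adjusted p = 0.14). Efnb1 moved from -0.04 to -0.41 (edgeR adjusted p = 0.214), and Epha1 turned from 0.22 to -0.11 (edgeR adjusted p = 0.573), both without a call. Between Rspo1 tdTom-pos and Rspo1 tdTom-neg cells DESeq2 without the offset called 7 members and 5139 of all 17011 genes. With the offset 0 members were called there by edgeR, against 8.45% of all genes, and 2 had an unadjusted p under 0.05. Efnb2 had 0.44 there (edgeR adjusted p = 0.0543), Epha1 -0.16 (0.373), Ephb6 -0.57 (0.208), Efna1 -0.52 (0.286) and Efna5 0.42 (0.197). With block and offset together, Efnb2 (-0.89, adjusted p = 0.000523), Ephb2 (0.74, 0.00258), Ephb6 (0.74, 0.0131) and Efna5 (-0.53, 0.0207) were called by edgeR in Rspo1 tdTom-neg against untreated cells (23.3% of all genes). Both together called 5 members by edgeR between Rspo1 tdTom-pos and Rspo1 tdTom-neg cells (23.9% of all genes), Ephb2 (-0.66, adjusted p = 0.00473), Ephb6 (-0.55, 0.0453), Efna1 (-0.51, 0.0183), Efna5 (0.45, 0.0417) and Efnb2 (0.43, 0.0135). The part of GC content and length in the uncorrected calls was not tested beyond these fits.

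**Figure D3:**
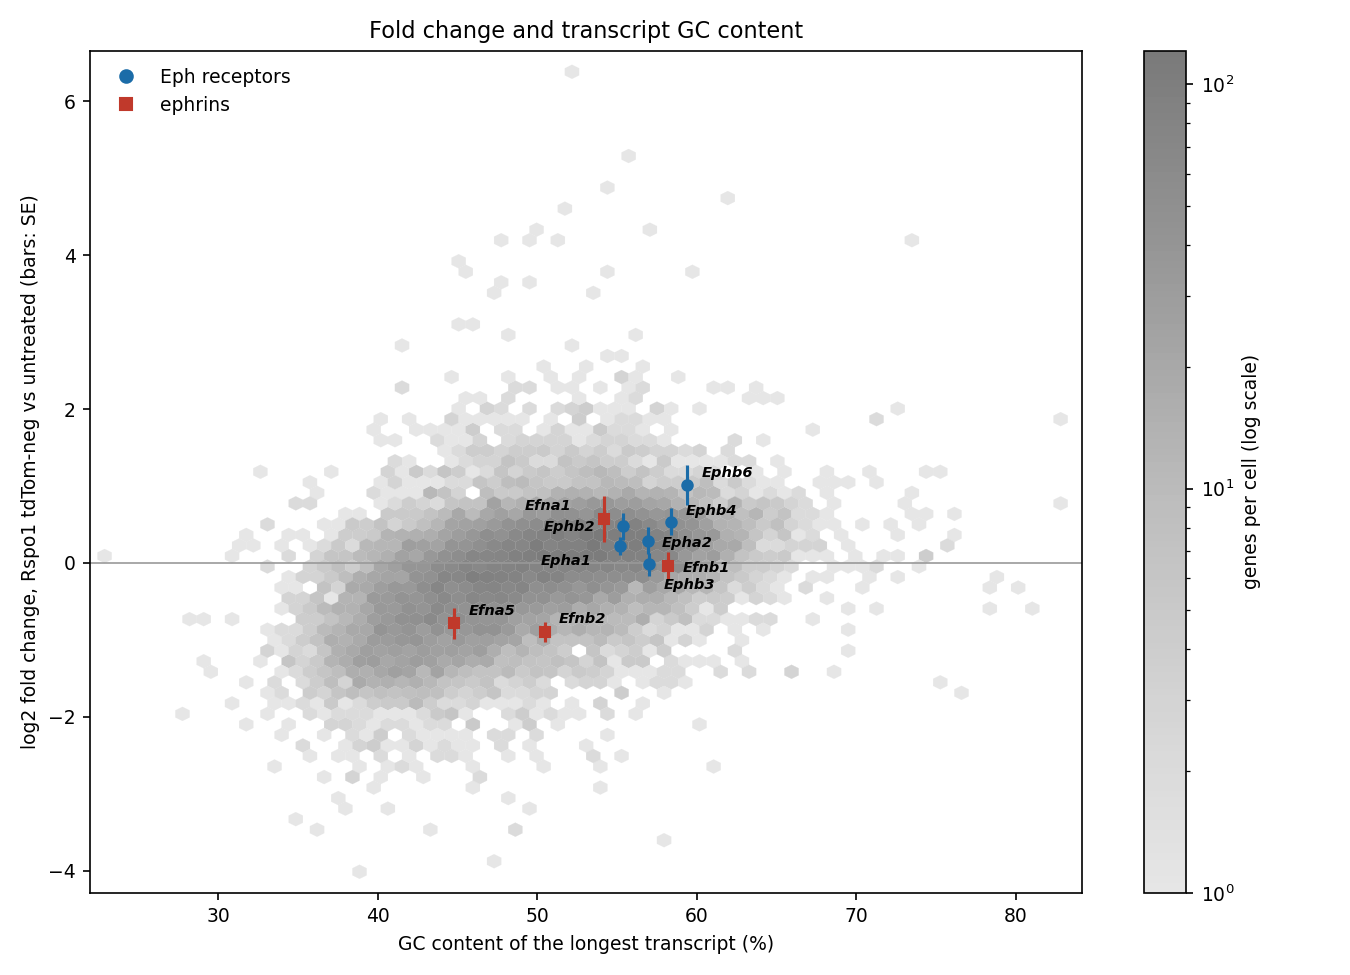
Log2 fold change of Rspo1 tdTom-neg against untreated cells against the GC content of the longest transcript, for 17001 genes (grey cells, shaded by the number of genes on a log scale) and the 10 members (blue circles for receptors, red squares for ephrins, bars for SE). Efna5 at 44.8% GC lies within the cloud of low-GC genes that fell, Ephb6 at 59.4% lies above the cloud's centre, and Efnb2 at 50.5% lies below genes of similar GC content.

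EphB receptor and ephrin-B transcripts were also set against each other within each library. The ratio of summed FPKM of Ephb2, Ephb3 and Ephb4 to that of Efnb1 and Efnb2 was chosen after the values had been seen, so it is given as a description without a test. It was 0.994, 1.12 and 0.990 in the untreated libraries of passages 5, 6 and 10, 1.43, 1.44 and 1.39 in the Rspo1 tdTom-pos libraries and 1.76, 1.85 and 1.85 in the Rspo1 tdTom-neg libraries. The 3 groups did not overlap, at 1.03 ± 0.0735, 1.42 ± 0.0264 and 1.82 ± 0.0535 (SD, n = 3). With GC and length correction the ratio was 0.947 to 1.14 in untreated, 1.38 to 1.43 in Rspo1 tdTom-pos and 1.86 to 1.92 in Rspo1 tdTom-neg libraries. With Ephb6, whose kinase is inactive, added to the receptors, likewise after the values had been seen, the ratio was 1.17 to 1.46 in untreated, 1.79 to 1.88 in Rspo1 tdTom-pos and 2.33 to 2.65 in Rspo1 tdTom-neg libraries. The summed ephrin-B level was 38.9 to 40.1 FPKM in Rspo1 tdTom-pos and 41.1 to 44.1 FPKM in Rspo1 tdTom-neg libraries, below the 47.5 to 62.1 FPKM of untreated libraries. The summed level of Ephb2, Ephb3 and Ephb4 was 72.2 to 81.7 FPKM in Rspo1 tdTom-neg libraries, and in Rspo1 tdTom-pos libraries its 54.1 to 57.6 FPKM fell within the 47.0 to 69.5 FPKM of untreated ones. Most of this sum was Ephb4, with means of 39.4, 40.5 and 58.4 FPKM in untreated, Rspo1 tdTom-pos and Rspo1 tdTom-neg cells. Ephb3 had 11.7, 9.60 and 11.8 FPKM and Ephb2 5.72, 6.12 and 8.15 FPKM in that order. The ratio thus mainly sets Ephb4 against the 2 ephrin-B genes.

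**Figure D4:**
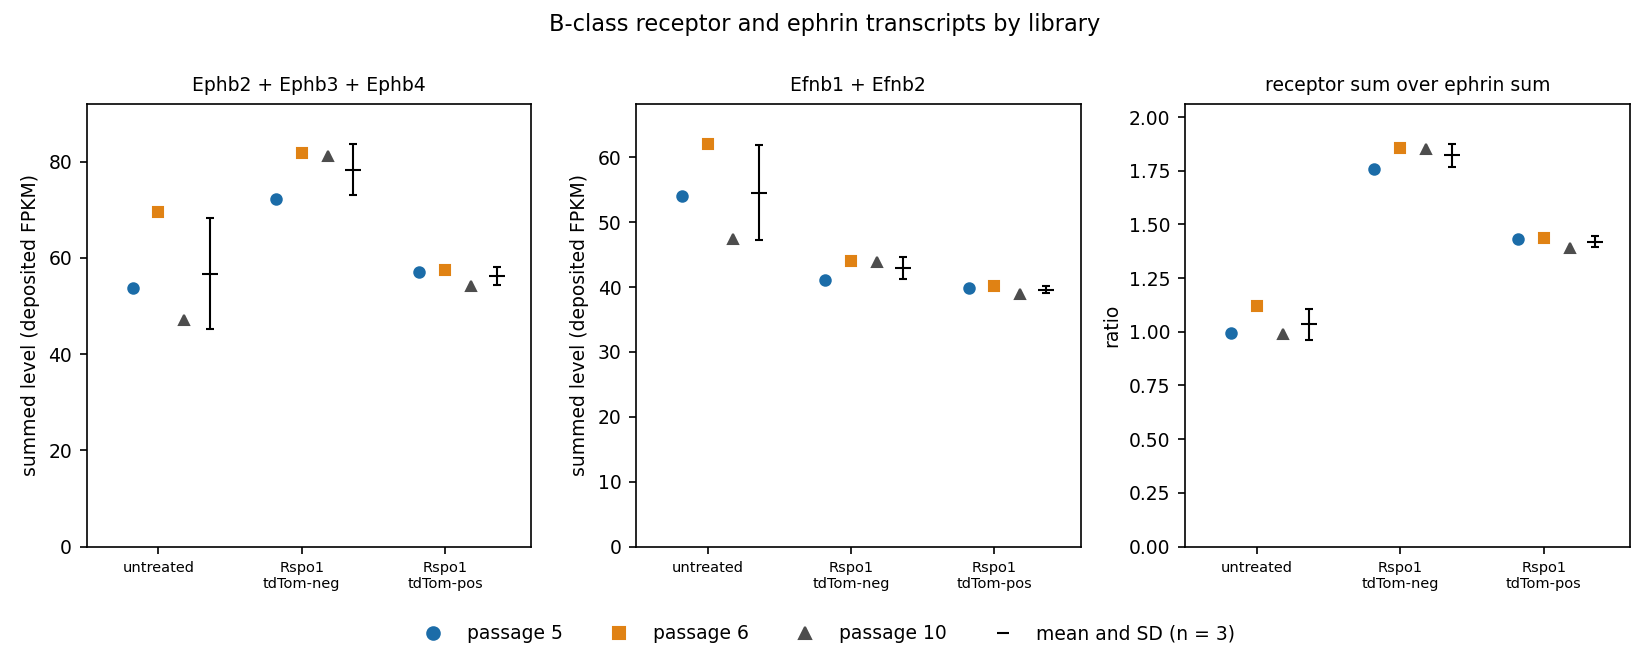
Summed FPKM of Ephb2, Ephb3 and Ephb4 (left), of Efnb1 and Efnb2 (middle) and their ratio (right) in each of the 9 libraries by group, with the mean and SD of 3 libraries. Every axis is linear from 0, and colour and shape give the passage. The ratio separates the groups, at 0.990 to 1.12 in untreated, 1.39 to 1.44 in Rspo1 tdTom-pos and 1.76 to 1.85 in Rspo1 tdTom-neg libraries. Ephb4 makes up most of the receptor sum.

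The corresponding ratio of Epha1 and Epha2 to Efna1 and Efna5 did not separate the groups. It was 2.68, 3.76 and 6.19 in untreated, 2.43, 3.36 and 5.11 in Rspo1 tdTom-neg and 4.25, 5.29 and 6.88 in Rspo1 tdTom-pos libraries of passages 5, 6 and 10. In all 3 groups this ratio was lowest at passage 5 and highest at passage 10, and within each passage the Rspo1 tdTom-pos library was highest. The sums are partial, since Efna3, Efna4 and Epha4 are not among the 10 members and were left out. Each of these had a higher mean FPKM than Efna5 in every group. The order of the groups thus holds for the named genes only, and whether it holds with Efna3, Efna4 and Epha4 added was not tested.

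Passage was associated with the level of Efna1. Averaged within groups, Efna1 fell by 0.84 on the log2 scale from passage 5 to passage 10 (SE 0.14, edgeR adjusted p = 0.00599), the only member of 10 called in that comparison, against 9.07% of all genes in either direction and 4.5% lower. It was called in all 10 alternatives, with an edgeR adjusted p that reached 0.0445 when 1 library was left out, without untreated replicate 1. At passage 6 Efna1 had -0.51 against passage 5 (SE 0.14, edgeR adjusted p = 0.0913). Its level at passages 5, 6 and 10 was 43.1 ± 15.2, 30.1 ± 9.83 and 24.2 ± 9.79 CPM (SD over the 3 groups). The passages overlapped in Efna1 because the groups differ within a passage.

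Ephb6 was higher at passage 6 than at passage 5 by 0.69 (SE 0.16, edgeR adjusted p = 0.0473), the only member called there, against 2.49% of all genes in either direction and 1.16% higher. The call was lost without untreated replicate 1 (0.57, edgeR adjusted p = 0.303), Rspo1 tdTom-pos replicate 1 (0.82, 0.073), Rspo1 tdTom-neg replicate 1 (0.68, 0.226) or Rspo1 tdTom-neg replicate 2 (0.75, 0.0699), and with the GC and length offset (0.63, 0.0821). Epha2 at passage 10 lay above passage 5 in all 3 groups without overlap (16.7% of all genes did not overlap), with a log2 fold change of 0.38 (SE 0.12, edgeR adjusted p = 0.0675). Ephb2 had -0.39 (SE 0.12, edgeR adjusted p = 0.0639), and -0.50 once corrected for GC and length (adjusted p = 0.0261). From passage 5 to passage 10 the other 7 members, none called, had log2 fold changes between -0.20 in Ephb3 and 0.35 in Ephb6. Other lists moved with passage too. By edgeR 10 of 15 proliferation genes were higher at passage 6 than at passage 5 (4 at passage 10), and 5 of 14 dissociation genes were lower at passage 6 and 6 at passage 10, Fos, Egr1 and Fosb among them. Of 6 hepatocyte genes tested, 2 were higher and 3 lower at passage 10. Their part in the values of the members was not tested. Passage number and the day of each culture cannot be told apart.

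**Figure D5:**
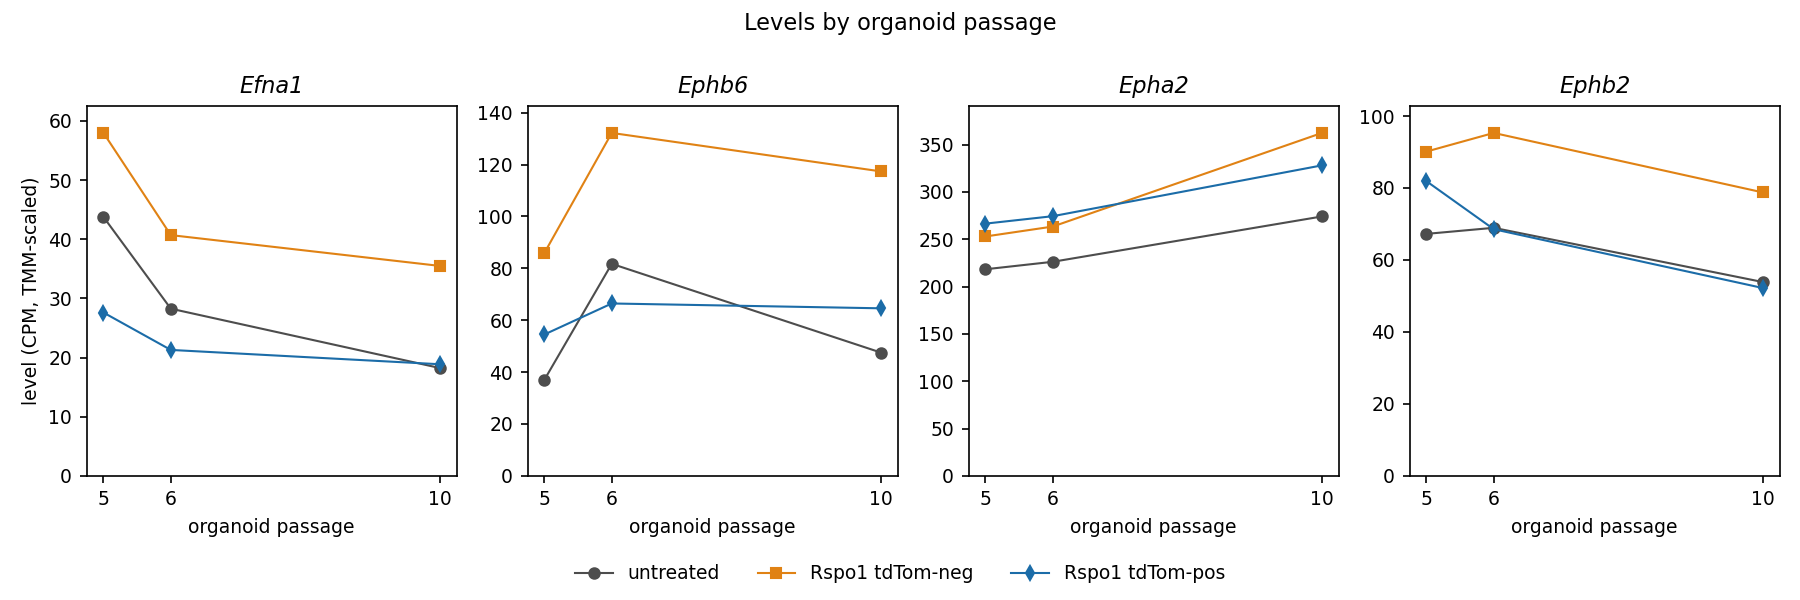
Level in TMM-scaled CPM of Efna1, Ephb6, Epha2 and Ephb2 against organoid passage (5, 6 and 10), 1 point per library, on linear axes from 0, with lines joining the libraries of a group. Efna1 is lowest and Epha2 highest at passage 10 in each of the 3 groups, and Ephb6 is highest at passage 6 in each.

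Of the 12 other Eph and ephrin genes of the mouse, 6 were expressed enough to be tested. By edgeR 3 of them changed in Rspo1 tdTom-neg against untreated cells, 2 higher and 1 lower, where 21.9% of all genes were called. Efna3, another ephrin-A gene, rose by 1.07 on the log2 scale (SE 0.22, edgeR adjusted p = 0.00808), from 18.4, 12.2 and 10.2 CPM to 31.1, 26.3 and 28.5 CPM at passages 5, 6 and 10. Efna4 rose by 0.80 (SE 0.20, edgeR adjusted p = 0.0168), and Epha4, an EphA receptor that also binds ephrin-B, fell by 0.92 (SE 0.20, edgeR adjusted p = 0.0102). Epha4 in Rspo1 tdTom-pos against Rspo1 tdTom-neg cells was higher by 0.96 (SE 0.20, edgeR adjusted p = 0.00831) and Efna3 lower, at -0.81 (SE 0.22, edgeR adjusted p = 0.0224). The rise of Efna4 was not called without untreated replicate 3 (edgeR adjusted p = 0.0528) or Rspo1 tdTom-neg replicate 3 (0.0556). The second call of Efna3 was lost without Rspo1 tdTom-neg replicate 1 (0.0762) or 3 (0.0521) and without Rspo1 tdTom-pos replicate 2 (0.0872) or 3 (0.0655). With the GC and length offset alone, 0 of the 6 were called by edgeR in any comparison of groups. An unadjusted p under 0.05 was found for 2, 2 and 1 of them in Rspo1 tdTom-neg against untreated, Rspo1 tdTom-pos against Rspo1 tdTom-neg and Rspo1 tdTom-pos against untreated cells. In the same order that fit called 1641, 1438 and 1062 of all 17011 genes, so 0 of 6 is little below the share of all genes. With block and offset together edgeR called 1 of the 6 higher and 1 lower in the first of these comparisons, against 23.3% of all genes. It called 1 higher in the second (23.9%) and 1 higher in the third (2799 of 17011 genes). Without block or offset, 0 of the 6 were called by edgeR in Rspo1 tdTom-pos against untreated cells, against 5.21% of all genes (1 had an unadjusted p under 0.05, and DESeq2 called 1). Efna4 was called there with the block alone (0.63, edgeR adjusted p = 0.0287). Efna1, Efna3 and Efna4 are neighbours on chromosome 3 (89271733 to 89338028, GRCm38). Efna3 shares 14.1% of its exon bases with Gm15998 and Efna4 10.5% with 4731419I09Rik, both on the opposite strand.

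Genes that act with Eph receptors inside the cell were taken from a list of 36 adaptors, exchange factors, phosphatases and small GTPases or their effectors, of which 33 were tested. In Rspo1 tdTom-neg against untreated cells 3 rose and 8 fell by edgeR, with a median log2 fold change of -0.14 over the 33 (all genes -0.02). Of all genes 8% rose and 13.9% fell there. The smallest adjusted p-values were those of Rock1 (-1.63, SE 0.18) and Rock2 (-1.74, SE 0.22), the kinases through which RhoA contracts the cell, and of Rasa1 (-1.69, SE 0.19), a GTPase activator that binds EphB receptors, with adjusted p-values by edgeR of 0.000993 to 0.00125. Between Rspo1 tdTom-pos and Rspo1 tdTom-neg cells 8 were higher and 4 lower in the former (median 0.18, all genes 0.03), where 14.6% of all genes were higher and 9.78% lower. Among the higher ones were Rock1 at 1.60, Rasa1 at 1.53 and Rock2 at 1.58. With the GC and length offset 2 rose and 4 fell in the first of these comparisons (median -0.03, all genes -0.09), where 9.65% of all genes were called. In the second 4 were higher and 3 lower (median -0.02, all genes 0.09), where 8.45% of all genes were called. Rock1 then had -0.83 and 0.79, Rock2 -0.93 and 0.75 and Rasa1 -1.17 and 0.98, all with edgeR adjusted p-values of at most 0.0385. Compared with untreated cells, Tiam1, a Rac activator, rose by 2.28 (SE 0.31, edgeR adjusted p = 0.00234) in Rspo1 tdTom-pos cells. Ngef, the EphA-linked exchange factor ephexin, fell there by 0.52 (SE 0.13, edgeR adjusted p = 0.044). The other 31 of the 33 were not called, where 5.21% of all genes were, a share close to that of the list.

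Of 10 genes for enzymes that cleave Ephs or ephrins, all were tested. Adam10, a protease that sheds ephrins, fell by 1.23 (SE 0.17, edgeR adjusted p = 0.00166) in Rspo1 tdTom-neg against untreated cells, the only gene of the 10 called there, where 21.9% of all genes were. Corrected for GC and length it had -0.72 (edgeR adjusted p = 0.0152). Adam10 in Rspo1 tdTom-pos against Rspo1 tdTom-neg cells was higher by 0.92 (SE 0.17, edgeR adjusted p = 0.00574) and 3 genes were lower, including the gamma-secretase subunits Psenen (-0.69, SE 0.16) and Aph1a (-0.47, SE 0.12), against 24.3% of all genes. With the offset 0 of the 10 were called there by edgeR, against 8.45% of all genes, and 3 had an unadjusted p under 0.05. Adam10 then had 0.38 (edgeR adjusted p = 0.115), Psenen -0.19 (0.369) and Aph1a -0.13 (0.496). With block and offset together edgeR called 2 of the 10 higher and 0 lower, against 23.9% of all genes. DESeq2 without the offset called 5 of the 10 and 5139 of all 17011 genes.

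The genes whose levels tracked a member most closely were sought for Ephb2, Ephb3 and Efnb1 among 11661 genes, by Pearson's r of log2 CPM over the 9 libraries, as a description. The genes most like Ephb2 were Gtf2i (r = 0.984), Pex26 (0.979) and Zfp324 (0.956). Those most like Ephb3 were D17Wsu92e (r = 0.908), Tsc22d1 (0.902) and Lsm14b (0.901). Efnb1 was followed by H6pd (r = 0.978), Tmem185b (0.968) and Col18a1 (0.968). No member stood among these 9 genes, and the points share group, passage and base composition.

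The authors' deposited table for Rspo1 tdTom-neg against untreated cells has 6 of the 10 members at an adjusted p under 0.05, 4 higher and 2 lower. In the authors' deposited table Ephb2 has a log2 fold change of 0.49 (adjusted p = 0.0121), Ephb6 of 1.09 (adjusted p = 1.01e-07) and Efnb2 of -0.89 (adjusted p = 1.52e-06) there. For Rspo1 tdTom-pos against Rspo1 tdTom-neg cells the authors' deposited table has 8 members under that threshold, 2 higher and 6 lower. For Rspo1 tdTom-pos against untreated cells the authors' deposited table has 2, Efnb1 at -0.47 (adjusted p = 0.0113) and Efnb2 at -0.42 (adjusted p = 0.0165), both lower. These counts equal those of the fit with passage as a block, which called 35.5%, 38.9% and 13.2% of all 17011 genes in the same order. The share of the authors' 15807 genes under the threshold was not counted.

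The 10 genes lie on 8 chromosomes in GRCm38 (GENCODE M21). Epha2 (ENSMUSG00000006445) lies on chromosome 4 from 141301240 to 141329384 on the plus strand and Ephb2 (ENSMUSG00000028664) on the same chromosome from 136647539 to 136835988 on the minus strand. Epha1 (ENSMUSG00000029859, 42358487 to 42373268, minus) and Ephb6 (ENSMUSG00000029869, 41605482 to 41620509, plus) are on chromosome 6. Ephb3 (ENSMUSG00000005958) lies on chromosome 16 from 21204755 to 21223305 (plus) and Ephb4 (ENSMUSG00000029710) on chromosome 5 from 137350109 to 137378669 (plus). Of the ephrins, Efna1 (ENSMUSG00000027954) lies on chromosome 3 from 89271733 to 89281142 (minus), Efna5 (ENSMUSG00000048915) on chromosome 17 from 62604184 to 62881317 (minus), Efnb1 (ENSMUSG00000031217) on the X chromosome from 99136130 to 99148991 (plus) and Efnb2 (ENSMUSG00000001300) on chromosome 8 from 8617434 to 8661242 (minus). The counts are over whole genes, so a change in isoform would not be seen.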

How the data were processed

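RNA sequencing measured 9 libraries, 3 in each of 3 groups. The authors deposited raw counts and FPKM values per gene for each library, per the file headers, and tables of log2 fold changes and adjusted p-values for 15807 genes. Per the submitters' processing notes, Trimmomatic 0.35, FastQC 0.11.2, STAR 2.5.1b, featureCounts, DESeq2 and the build GRCm38 were used. The strand setting and the annotation are not given in the sources used here. The deposited FPKM entered no test.

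The 10 genes and the gene lists were chosen with earlier results of these data known. All 10 genes are named. A gene of another list is named where its adjusted p is under 0.05 and among the 3 smallest of its list in a comparison, or where its level is the highest of its list. Axin2 is named as the label check, and the 3 genes with the highest Pearson r as most like a member. Counts were tested in R 4.3.3 with edgeR 4.0.16 (quasi-likelihood F-test, TMM scaling, filterByExpr with a minimum count of 10 and total of 15), in 1 fit of all 9 libraries with group as the factor, Benjamini-Hochberg adjusted over 17011 genes at a threshold of 0.05. The SE is the log2 fold change divided by the square root of F. Passages were compared in a fit of group and passage. CPM are TMM-scaled. Total counts of 23423979 to 37351448 give every member at least 192 counts, so replicate spread and not counting error sets the precision.

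Alternatives were upper-quartile scaling, DESeq2 1.42.0, no filter, a GC and length offset (natural splines with 4 degrees of freedom per library, longest GENCODE M21 transcript), only the 6 libraries compared, each library left out, and passage as a replicate block. In group comparisons the fits with 1 library left out had no passage term. They show how far the unpaired calls rest on single libraries, and the blocked calls were not checked in this way. Libraries of the same number share a passage, per the labels: after removal of group means their correlation was 0.123 to 0.573 in 9 pairs, against -0.476 to 0.0826 in 18 pairs of different passages, so the passages pair the libraries. The scripts were tested on simulated counts. One result for a gene of the list of cleaving enzymes is not reported here.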

Additional observations from a re-analysis of the deposited data

How the results depend on the processing

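Of 590 checks of a single member in a single comparison under an alternative, 510 stayed on the same side of the threshold, 37 gained a call, 43 lost one, and 0 called changes reversed. In 44 checks the sign changed with no call on either side. Genes called in Rspo1 tdTom-pos against untreated cells numbered 886, and 1506 with DESeq2, 1446 with no filter, 2247 with the replicate block and 2799 with block and offset; members called numbered 0, and 1, 0, 2 and 2. In Rspo1 tdTom-pos against Rspo1 tdTom-neg cells 4141 genes and 5 members became 1438 and 0 with the GC and length offset and 6624 and 8 with the block. In Rspo1 tdTom-neg against untreated cells 3724 genes and 3 members became 2299 and 2 with 6 libraries only, 1641 and 2 with the offset and 6039 and 6 with the block. They became 4740 and 5 with DESeq2, 4070 and 5 with upper-quartile scaling and 3834 and 6 with no filter, where 31128 genes were tested. Upper-quartile scaling moved the share of higher genes among those called there from 36.5% to 49.5%. For passage 10 against 5, 1543 genes and 1 member became 2151 and 3 with DESeq2, 2127 and 2 with the offset and 2784 and 2 with no filter. For passage 6 against 5, 423 genes and 1 member became 851 and 2 with DESeq2, 607 and 0 with the offset and 1193 and 2 with no filter. With 1 library left out, genes and members called ranged from 1800 to 3772 and 1 to 3 in Rspo1 tdTom-neg against untreated, 2061 to 4068 and 0 to 2 in Rspo1 tdTom-pos against Rspo1 tdTom-neg, 390 to 899 and 0 to 1 in Rspo1 tdTom-pos against untreated, 405 to 702 and 1 in every fit at passage 10, and 105 to 846 and 0 to 1 at passage 6. Apart from the offset, the block and the omission of libraries, the cause of these shifts was not tested.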
